A study of Rattus norvegicus with 6 samples.

Results

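Cells can be killed from outside, through death receptors, or from inside, through mitochondria. The genes described here encode these receptors or related ones, their adaptors, the caspases, the BCL2 proteins and the inhibitor of apoptosis proteins (IAPs). The genes for the Fas ligand and Diablo are listed with them. 39 genes were listed by symbol, and 37 of them had a probe set of their own among the 13949 genes measured. The remaining ones were Bcl2l2, whose probe set is annotated to Pabpn1 as well, and Bbc3. Neither was analysed here.

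RNA was measured on 6 Affymetrix arrays of rat oligodendrocyte progenitor cells (OPCs) in primary culture. These cells divide and give rise to the myelin-forming cells of the brain. The pups were 1 to 2 days old, and the cells recovered for 2 days in a growth medium with PDGF and NT3 before treatment. The controls were 3 unstimulated samples, and the other 3 samples had received fibrinogen, a blood clotting protein, for 12 h. The title of the series links fibrinogen to BMP signaling in these cells and to impaired remyelination. The sources used here gave neither strain nor fibrinogen dose. Nothing in the labels states that the 3 replicates of a group were separate cultures, so the spread behind each p-value may be technical.

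A death receptor belongs to the tumor necrosis factor (TNF) receptor family and carries a death domain in its cytoplasmic part. When Fas binds its ligand, the adaptor FADD and caspase-8 gather on it, and caspase-8 activates the caspases that take the cell apart. In the mitochondrial route, the pore formers BAX and BAK release cytochrome c, which assembles APAF1 and caspase-9. Survival proteins such as BCL2, BCL-XL and MCL1 hold the pore formers back, and BH3-only proteins relieve that block. OPCs are known to depend on PDGF for survival, and many newly formed oligodendrocytes die by apoptosis during development.

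Values were log2 levels normalized by the authors. On this scale a difference of 1 is a doubling, and levels of different genes were not compared as amounts. Background was judged from 956 genes for olfactory and vomeronasal receptors, whose levels had a median of 4.03 and a 95th percentile of 5.51. The mean level lay above that percentile for 28 of the 37 genes. The other 9 were Faslg, Tnfrsf10b, Ripk3, Casp1, Casp8, Casp12, Bik, Pmaip1 and Birc3, and a change in these could be missed. All 9 measured OPC markers lay above it, among them Pdgfra, Sox10 and Olig1. The second fibrinogen array (fibrinogen 2) stood apart from the others. Its 37 levels had an SD about the group mean of 0.199, against 0.123 and 0.154 on fibrinogen 1 and 3 and 0.0715 to 0.0930 on the control arrays.

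Fibrinogen raised Fas, the best known death receptor, to 2.04 times its control level, and lowered Casp6, which encodes an effector caspase, to 0.770 of it. The other 35 genes did not pass the test (limma, Benjamini-Hochberg adjusted p under 0.05 over all 13949 genes). Casp6 lay just inside the threshold (adjusted p = 0.0487, limma), and its call was lost when any 1 control array was left out. In the fit with all arrays 3.10% of all genes passed, 1.81% higher and 1.29% lower. The 1 gene higher and 1 lower of 37 (5.41%) stood close to that background. The median log2 change over the 37 genes was 0.03, against -0.0033 over all genes. The median size of the change regardless of sign was 0.09 in both. The change was smaller than 0.2 on the log2 scale for 32 of the 37 genes (86.5%), and for 82.5% of all genes. The groups did not overlap for 8 of the 37 genes (21.6%), against 21.3% of all genes.

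**Figure D1:**
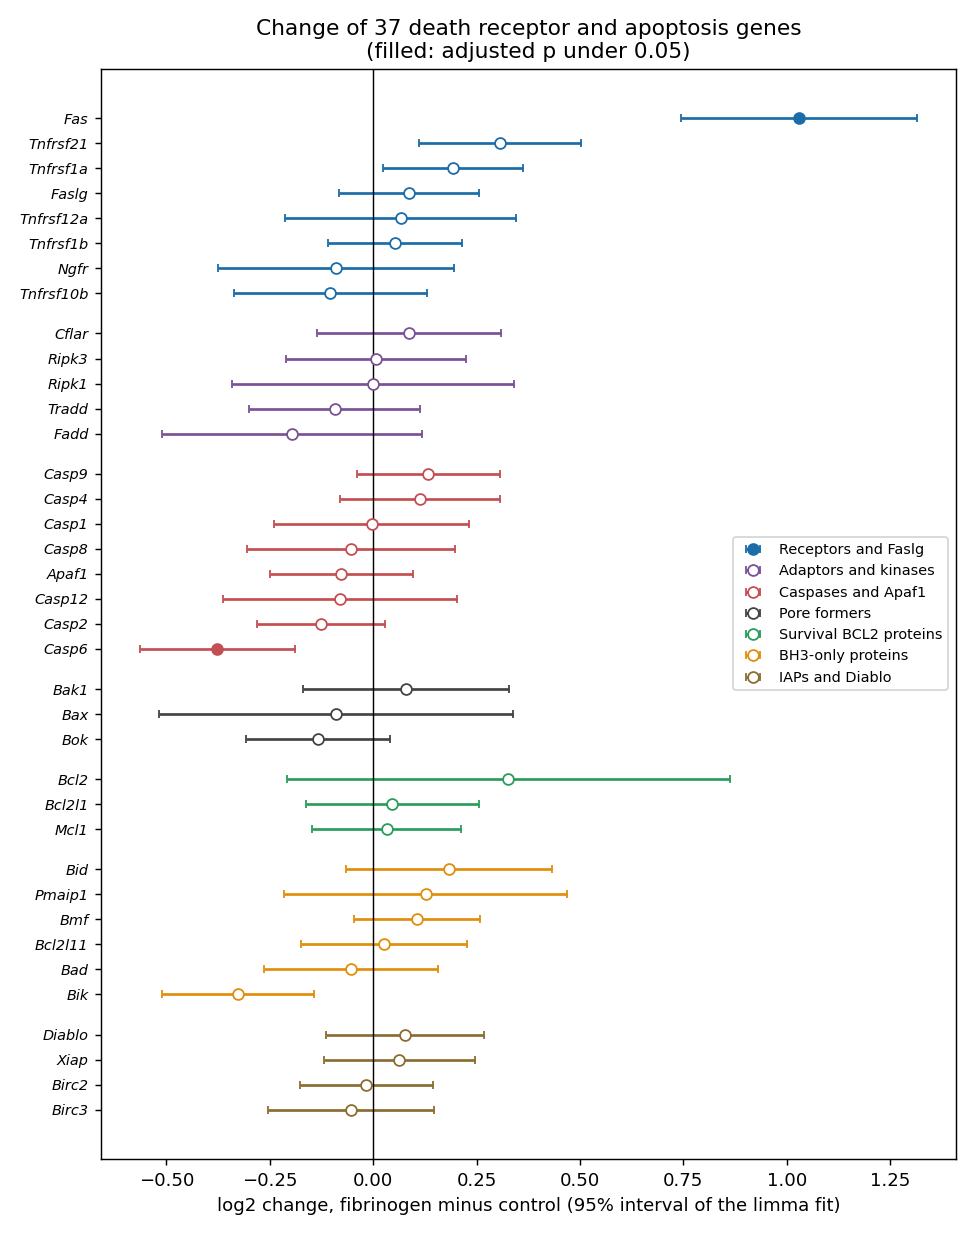
Log2 change (fibrinogen minus control, 3 arrays each) of the 37 genes on the x axis, ordered by role, with the 95% interval of the limma fit as horizontal bars and filled points for an adjusted p under 0.05. Fas stands at 1.03, Casp6 at -0.38, and the other 35 points, all open, lie between -0.33 and 0.33.

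For 30 of the 35 genes that did not pass, the 95% interval of the log2 change lay within 0.5 in either direction, which is a 1.41-fold change. The exceptions were Tnfrsf21, Fadd, Bax, Bcl2 and Bik. Among the 30, Faslg, Tnfrsf10b, Ripk3, Casp1, Casp8, Casp12, Pmaip1 and Birc3 lay below the background percentile. For these a narrow interval does not bound the change, since their values may be mostly background. The median half-width of the interval was 0.21. The largest half-width was 0.54, for Bcl2, whose interval reached from -0.21 up to 0.86. The number of arrays limited this precision.

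Among the receptors, Fas was the only one of 7, with Faslg beside them, to pass. Its log2 levels were 6.12, 6.11 and 5.83 in the controls and 7.22, 7.13 and 6.80 with fibrinogen. The lowest fibrinogen array thus exceeded the highest control by more than the range within either group. The log2 change was 1.03 ± 0.13 (SE), with a 95% interval of 0.75 to 1.31 and an adjusted p of 0.00401 in limma. By size this was the 16th largest rise of the 13949 genes, and by p-value Fas ranked 75. Fas passed in each of the 14 alternative fits, with changes of 0.935 to 1.16 and adjusted p-values up to 0.0204. The Fas ligand gene, Faslg, had log2 levels of 5.22, 5.11 and 5.10 in controls and 5.25, 5.15 and 5.29 with fibrinogen. Both groups lay below the background percentile and overlapped.

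Tnfrsf21 encodes death receptor 6, a receptor with a death domain that is expressed in the oligodendrocyte lineage. Its log2 levels were 8.69, 8.64 and 8.61 in controls and 8.95, 8.81 and 9.10 with fibrinogen. All fibrinogen arrays were above all controls, but the change of 0.31 ± 0.09 (SE) did not pass (adjusted p = 0.115, limma). It passed without fibrinogen 2, at 0.38 with an adjusted p of 0.0454, and with array weights, at 0.37 with an adjusted p of 0.0268 (limma). The range of adjusted p over its 14 alternative fits was 0.0268 to 0.310.

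Tnfrsf1a, the main receptor for TNF, had log2 levels of 9.51, 9.51 and 9.48 in controls and 9.73, 9.58 and 9.77 with fibrinogen. The groups did not overlap, and the change of 0.19 ± 0.07 (SE) did not pass (adjusted p = 0.254, limma). The second TNF receptor gene, Tnfrsf1b, had a log2 change of 0.05, and Tnfrsf12a, the receptor for TWEAK, of 0.07. For Tnfrsf12a the low array was fibrinogen 2, at 7.74 against 8.16 and 8.20 on the other fibrinogen arrays. Ngfr, the neurotrophin receptor that can signal death when Trk receptors are absent, had a change of -0.09, and Tnfrsf10b, the TRAIL receptor, of -0.10. Both overlapped between the groups. 3 of the 8 genes in this role (Fas, Tnfrsf21 and Tnfrsf1a) had an unadjusted p under 0.05, all higher. Over the 37 genes 5 did (13.5%), against 15.6% of all genes.

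**Figure D2:**
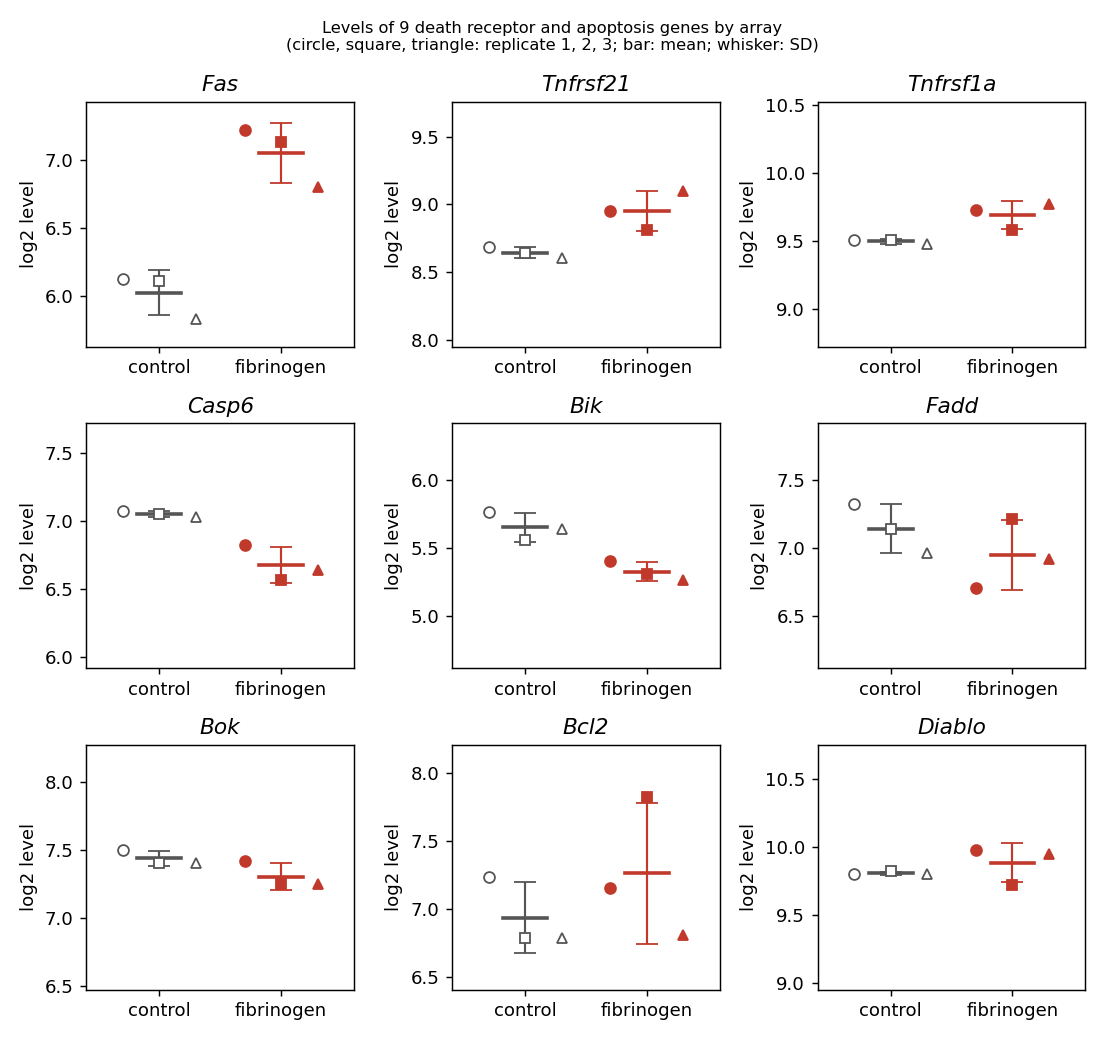
Log2 level (y axis, same span in each panel) of 9 of the genes on each control array (open symbols) and fibrinogen array (filled symbols), with circle, square and triangle for replicates 1, 2 and 3, bars for the group mean and whiskers for the SD. The groups are apart for Fas, Tnfrsf21, Tnfrsf1a, Casp6 and Bik and overlap for Fadd, Bok, Bcl2 and Diablo, and the square of fibrinogen 2 lies at 7.83 for Bcl2.

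None of the 5 adaptor and kinase genes passed in limma, and none had an unadjusted p under 0.05. Fadd, which links Fas to caspase-8, had log2 levels of 7.33, 7.14 and 6.97 in controls and 6.71, 7.22 and 6.92 with fibrinogen. The groups overlapped, and the change was -0.20 ± 0.14 (SE, adjusted p = 0.568, limma). It was -0.08 without fibrinogen 1, -0.10 without control 1 and -0.33 without fibrinogen 2. Cflar encodes FLIP, which blocks caspase-8 at the receptor, and had a change of 0.09 with a 95% interval of -0.13 to 0.31. Tradd, the adaptor of the TNF receptor, had a change of -0.09. Ripk1, the kinase shared by survival and death signaling, had log2 levels of 7.83, 7.88 and 7.70 in controls and 7.54, 8.18 and 7.69 with fibrinogen. Its group means were equal, and fibrinogen 2 was the highest of the 6 arrays while fibrinogen 1 and 3 were the lowest. Ripk3, its partner in necroptosis, lay below the background percentile with a change of 0.01.

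Of the 8 genes for caspases and the apoptosome, Casp6 was the only one called in limma, as lower. Casp6, whose protease cleaves nuclear lamins, had log2 levels of 7.07, 7.05 and 7.03 in controls and 6.82, 6.56 and 6.64 with fibrinogen. Each fibrinogen array was below each control, and the controls lay close together. The change was -0.38 ± 0.08 (SE), with a 95% interval of -0.56 to -0.19 and an adjusted p of 0.0487 (limma), just inside the threshold. The call was kept in 8 of 14 alternative fits. The direction was kept in all of them, but the groups did not overlap, so leaving out 1 array could not reverse it. The call ended when any control was left out (limma adjusted p of 0.173 for control 1, 0.173 for control 2 and 0.149 for control 3), and also for fibrinogen 2 (0.0754) and fibrinogen 3 (0.130).

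The initiator of the mitochondrial route, Casp9, had log2 levels of 6.29, 6.12 and 6.27 in controls and 6.41, 6.37 and 6.30 with fibrinogen. The groups were barely separate, and the change of 0.13 did not pass (adjusted p = 0.459, limma). Apaf1, its scaffold, had a change of -0.08. Casp2, an initiator linked to DNA damage, had levels of 7.99, 7.88 and 7.90 in controls and 7.79, 7.83 and 7.77 with fibrinogen, separate groups with a change of -0.13 (adjusted p = 0.431, limma). Casp8, the initiator below Fas, lay under the background percentile with a change of -0.05 and a 95% interval of -0.31 to 0.20. The inflammatory caspase genes Casp1 and Casp4 had changes of -0.0033 and 0.11, and Casp12, linked to stress of the endoplasmic reticulum, of -0.08. Casp1 and Casp12 also lay under that percentile.

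The 3 pore formers did not pass in limma, and none had an unadjusted p under 0.05. Bax had log2 levels of 10.85, 10.61 and 10.74 in controls and 10.93, 10.14 and 10.86 with fibrinogen. Fibrinogen 1 was the highest of the 6 arrays and fibrinogen 2 the lowest. The change was -0.09 with all arrays and 0.16 without fibrinogen 2, so its sign rested on that array. Bak1 was low on the same array, at 9.85 against 10.23 and 10.26 on fibrinogen 1 and 3, and its change was 0.08. Bok, a relative of both, had a change of -0.13 ± 0.08 (SE, adjusted p = 0.462, limma).

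The survival genes did not pass in limma either, with 0 of 3 at an unadjusted p under 0.05. Bcl2 had log2 levels of 7.24, 6.79 and 6.79 in controls and 7.16, 7.83 and 6.81 with fibrinogen. Its change of 0.33 ± 0.24 (SE, adjusted p = 0.581, limma) came down to 0.045 without fibrinogen 2, the array with the high value. Bcl2l1, which encodes BCL-XL, had a change of 0.05 with a 95% interval of -0.16 to 0.26. Mcl1, whose short-lived protein is needed in many progenitor cells, had log2 levels of 6.72, 6.84 and 6.90 in controls and 6.90, 6.90 and 6.76 with fibrinogen. These overlapped, and the 95% interval of the Mcl1 change was -0.15 to 0.21.

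Of 6 BH3-only genes none passed in limma, and 1 had an unadjusted p under 0.05. This was Bik, at 5.77, 5.56 and 5.64 in controls and 5.41, 5.31 and 5.27 with fibrinogen on the log2 scale. Every fibrinogen array was lower, but the mean of Bik over all arrays lay under the background percentile, and its change of -0.33 ± 0.08 (SE) had an adjusted p of 0.0746 (limma; 0.0585 to 0.247 over 12 alternative fits). Bid, which caspase-8 cleaves to connect the death receptors with mitochondria, had a change of 0.18 with overlapping groups. Bmf, a sensor of lost attachment, had levels of 6.39, 6.38 and 6.40 in controls and 6.56, 6.47 and 6.46 with fibrinogen. Those groups were separate, and the change of 0.11 did not pass (adjusted p = 0.507, limma). Bcl2l11, which encodes BIM and is known to respond to growth factor withdrawal, had a change of 0.03 (95% interval -0.17 to 0.23). Bad, a target of survival kinases, had a change of -0.05, and of 0.045 without fibrinogen 2. Pmaip1, which encodes NOXA, had a change of 0.13, with the highest level on fibrinogen 2 (5.09, against 4.62 and 4.49 on the other fibrinogen arrays), and without that array the change was -0.05.

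The 4 genes for IAPs and their antagonist had changes between -0.05 and 0.08, with 0 passing in limma and 0 at an unadjusted p under 0.05. Xiap, a direct caspase inhibitor, had a change of 0.06. Birc2 and Birc3 encode the cellular IAPs of the TNF receptor complex, and their changes were -0.02 and -0.05, the latter below the background percentile. Diablo, which mitochondria release to bind IAPs, had levels of 9.80, 9.82 and 9.80 in controls and 9.98, 9.72 and 9.95 with fibrinogen. Fibrinogen 2 was below and the other fibrinogen arrays above all controls.

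**Figure D3:**
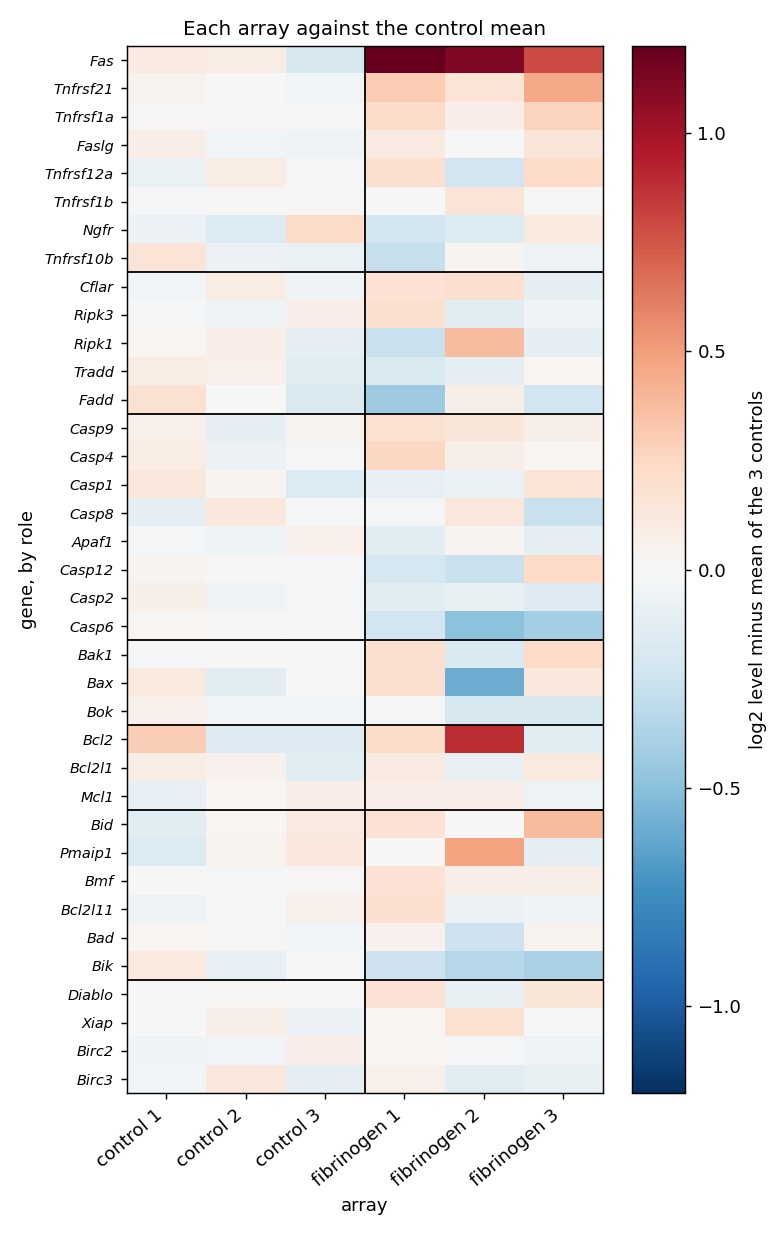
Log2 level of each of the 37 genes (rows, by role) on each of the 6 arrays (columns) minus the mean of the 3 controls, red for higher and blue for lower, with black lines between roles and groups. The Fas row is red on all 3 fibrinogen arrays and the Casp6 row blue on all 3, while for Bcl2, Bax and Ripk1 the strong colour is in the column of fibrinogen 2.

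Fibrinogen 2 lay outside the range of the other 5 arrays for 17 of the 37 genes (45.9%), 7 times above and 10 times below. Fibrinogen 1 did so for 15 (40.5%) and fibrinogen 3 for 14 (37.8%). Over all genes the shares were 48.0% for fibrinogen 2, 32.5% for fibrinogen 1 and 28.0% for fibrinogen 3. The low values included Bax, Bak1, Bad, Diablo and Tnfrsf12a, and the high values Bcl2, Ripk1, Pmaip1 and Xiap. Leaving it out turned the sign of the change for Bax, Bad, Pmaip1, Casp1 and Casp12, none of which passed. Without it, Fas and Tnfrsf21 passed as higher and no gene as lower in limma.

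The other genes of these pathways gave the setting of the list. Of 146 further measured genes in 8 lists, limma called 4 as higher and 2 as lower, which is 4.11% against the 3.10% of all genes. Their median log2 change was 0.02. Of 12 genes for TNF family ligands, neurotrophins and App, 0 passed and 0 had an unadjusted p under 0.05, and 4 lay above the background percentile. Tnf and Tnfsf10, the ligands of Tnfrsf1a and Tnfrsf10b, had levels below it, with changes of -0.04 and -0.03. The 2 ligand genes with the smallest p were Tnfsf11 and Tnfsf15, with log2 changes of 0.13 and 0.12 (unadjusted p = 0.0946 and 0.141, limma), and Tnfsf11 lay below the background percentile.

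Of 15 other genes for TNF and neurotrophin receptors, 1 fell and 0 rose. Tnfrsf19, which encodes TROY, a receptor without a death domain that is expressed in neural progenitors, had log2 levels of 8.62, 8.60 and 8.63 in controls and 7.85, 7.97 and 7.90 with fibrinogen. The groups were far apart relative to their spread. The change was -0.71 ± 0.07 (SE, adjusted p = 0.00149, limma), to 0.611 of the control, and it passed in 14 of 14 alternative fits. Fas and Tnfrsf19, of the same receptor family, thus moved in opposite directions on the same arrays. Tnfrsf11b, the decoy receptor osteoprotegerin, had a change of -0.38 with an adjusted p of 0.107 (limma).

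Of 26 genes that carry the signal below TNF receptors, 1 fell and 0 rose, with a median change of 0.01. Traf4, an adaptor of the TRAF family, fell from 9.55, 9.54 and 9.41 to 9.03, 8.71 and 9.06, a log2 change of -0.57 ± 0.10 (SE, adjusted p = 0.0245, limma). The call was lost without control 1, 2 or 3 (adjusted p = 0.105, 0.110 and 0.0710) and without fibrinogen 1 (0.0510, limma). Nfkbia and Nfkbie encode inhibitors of NF-kappaB that this factor itself induces, and neither passed, with changes of 0.32 and 0.21 (limma adjusted p of 0.140 and 0.148). The genes for the factor, Nfkb1 and Rela, had changes of 0.09 and 0.06.

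Of 16 genes for later apoptotic steps and mitochondrial proteins, 0 passed in limma and 2 had an unadjusted p under 0.05. These were Dffb, the nuclease that cuts DNA in dying cells, with a change of -0.36 (adjusted p = 0.182, limma), and Dnm1l, which divides mitochondria, with -0.18. Cycs, which encodes cytochrome c, had a change of -0.03.

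Of 20 other BCL2 relatives, BAG genes and similar regulators, 2 rose and 0 fell. Bag3, a partner of HSP70 that supports protein quality control and survival, rose from 8.13, 7.95 and 7.88 to 8.95, 8.79 and 8.80, a log2 change of 0.86 ± 0.09 (SE, adjusted p = 0.00207, limma) that passed in 14 of 14 alternative fits. Bag1, which binds both HSP70 and BCL2, had levels of 9.73, 9.73 and 9.74 in controls and 10.03, 10.19 and 10.00 with fibrinogen. It passed with a change of 0.34 ± 0.07 (SE, adjusted p = 0.0496, limma), but in no fit without 1 array, where limma's adjusted p was 0.168, 0.181 and 0.158 for the left-out controls 1, 2 and 3 and 0.101, 0.0571 and 0.0780 for fibrinogen 1, 2 and 3. After median centring it was 0.0640 and after quantile normalization 0.0555. The 2 genes that passed are co-chaperones and not members of the BCL2 family itself.

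Fas is also a known target of the tumor suppressor p53. Of 21 other p53 pathway genes 1 rose and 0 fell in limma, with a median change of 0.05, and at an unadjusted p under 0.05 there were 6 higher and 1 lower (33.3%, against 15.6% of all genes). Tp53inp1, which p53 induces, rose from 9.89, 10.08 and 10.04 to 10.38, 10.33 and 10.42, a change of 0.37 ± 0.08 (SE, adjusted p = 0.0396, limma). That call was lost without control 1, 2 or 3 (adjusted p = 0.145, 0.0976 and 0.122) and without fibrinogen 1 or 3 (0.105 and 0.113, limma). Phlda3, an inhibitor of AKT, had a change of 0.50 (adjusted p = 0.0736), and Cdkn1a, the cell cycle inhibitor p21, of 0.36 (adjusted p = 0.182, limma). Plk3, Zmat3 and Ccng1 were also higher at an unadjusted p under 0.05, with changes of 0.33, 0.22 and 0.16, and Sesn1 was lower, at -0.22. None of these passed in limma. Mdm2, the p53 ubiquitin ligase, had a change of 0.07. Of the 21 changes, 12 were above 0 and 9 below. Gadd45a had a change of -0.18, and Ei24 of -0.28, with fibrinogen 2 at 9.54 against 10.42 and 10.39. Neither had an unadjusted p under 0.05 in limma. The list was chosen with earlier results of these data known, and a part of p53 in the rise of Fas was not tested. The p53 target Bax, as given above, had a change of -0.09, or 0.16 without fibrinogen 2.

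**Figure D4:**
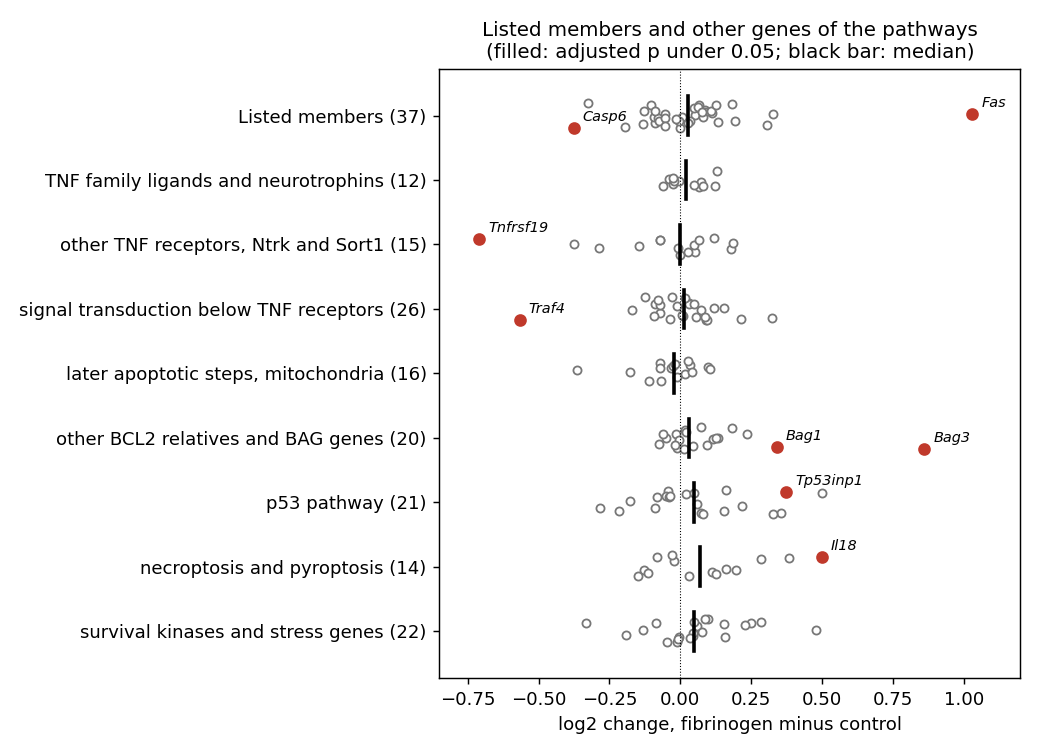
Log2 change (fibrinogen minus control, 3 arrays each; x axis) of the 37 listed genes and of the other measured genes in 8 pathway lists (rows, number of genes in brackets), with filled points for an adjusted p under 0.05 in limma and black bars for medians. The medians lie between -0.02 and 0.07, and the named points are Fas, Bag3, Il18, Tp53inp1 and Bag1 on the right and Casp6, Traf4 and Tnfrsf19 on the left.

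Markers of cell types were measured beside these changes. The summed linear level of the 9 OPC markers (arbitrary units) was 18487 to 19306 in controls and 15380 to 16662 with fibrinogen. In such sums the brightest probe sets weigh most, so they do not describe every gene of a list. In limma 4 of the 9 fell (Gpr17, Neu4, Pdgfra and Cspg4). The other 5 did not pass, with log2 changes of -0.22 (Bcan), -0.11 (Vcan), -0.07 (Olig1), -0.05 (Sox10) and -0.03 (Ptprz1). The summed level of 8 astrocyte markers was 3459 to 3522 in controls and 4392 to 4906 with fibrinogen. Of these, 3 of the 8 rose (Gfap, Cd44 and Slc1a2). The other 5 did not pass, with changes from -0.04 (Gja1) and 0.01 (Aqp4) to 0.46 (S100b, adjusted p = 0.0516, limma). The shares that passed were 44.4% of the OPC and 37.5% of the astrocyte markers, against 3.10% of all genes. At an unadjusted p under 0.05 in limma, 5 OPC markers were lower (55.6%) and 6 astrocyte markers higher (75.0%), against 15.6% of all genes. The part of these marker changes in those of Fas and Casp6 was not tested. In these bulk samples fewer cells of a type and less RNA per cell cannot be told apart. Of 15 microglia and macrophage markers 0 passed in limma (1 at an unadjusted p under 0.05), and 10 lay below the background percentile, among them Itgam, Csf1r and Ptprc. The 5 above it were Cd68, P2ry12, C1qb, Cx3cr1 and C1qc. The sum of the 15 was 653 to 677 in controls and 625 to 671 with fibrinogen. Of 8 markers of T and NK cells, which are known to carry Faslg, 0 passed (1 at an unadjusted p under 0.05), 7 lay below that percentile, and the sum was 205 to 225 and 199 to 230. Of 8 oligodendrocyte markers 1 rose and 1 fell: Ermn, a cytoskeletal protein, by 0.91, and Cnp, an enzyme of myelin, with a change of -0.48 (adjusted p = 0.00442 and 0.0147, limma). Their summed level was 3545 to 3854 in controls and 3756 to 3893 with fibrinogen. Endothelial, pericyte and neuron markers had 0 of 6, 0 of 7 and 1 of 12 passing, the last being Gad2, which fell. The mean of Gad2 lay below the background percentile. Above that percentile were 2 of the 6 endothelial, 5 of the 7 pericyte and 9 of the 12 neuron markers.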

How the data were processed

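The deposited table holds 1 value for each of 26312 probe sets on 6 arrays. The deposited values were read as log2 levels normalized by the authors with RMA, because RMA is named (beside limma, without settings) per the submitters' processing notes and the values span a log2 range. RMA can compress differences, most of all in dim genes. Of 25106 probe sets with values, 14700 had 1 gene symbol in the platform's annotation, 275 several and 10131 none. The probe set with the highest mean was used per gene.

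Fibrinogen minus control was tested for all 13949 genes with limma 3.58.1 (R 4.3.3; lmFit, eBayes, two-sided, no covariates), with Benjamini-Hochberg adjustment over all of them and a threshold of 0.05. Exact permutation of 3 against 3 arrays reaches no p below 0.1 and was not used. Groups came from the sample titles. The sample titles do not state whether the replicate numbers pair the arrays, and the main fit did not use them as pairs. At most 3.63% of genes were identical on a pair of arrays. The 14 alternatives were 2 scalings, a replicate block, 2 filters on dim genes, the mean of probe sets, a trended robust prior, array weights and each array left out. In data simulated for this comparison with equal spread, 53% of log2 changes of 0.5 and 94% of changes of 1 were called.

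The members and lists were chosen with earlier results of these data known. Named in full were members that passed or had an unadjusted p under 0.05, the largest change of each role, and pathway genes that passed, or else the 2 with the smallest p. Other array values were added after they were seen.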

Additional observations from a re-analysis of the deposited data

How the results depend on the processing

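Over the 14 alternatives, Fas was the member called higher in each, joined by Tnfrsf21 (2 members higher) with array weights and without fibrinogen 2. The number of members called higher was 1 to 2 in the fits without 1 array, and the number called lower 0 to 1: Casp6 alone was called lower, with all arrays and in 8 of the alternatives. With the replicate number as a block, 0 members were called lower (Casp6 adjusted p = 0.0726, limma) and 1 higher, and Bag1 and Tp53inp1 lost their calls (0.0902 and 0.0738). Same-numbered arrays shared little, with correlations of their deviations of 0.0278, 0.0217 and 0.0109, and the numbers were not taken as pairs. Such correlations over all genes cannot exclude that same-numbered arrays were prepared together. The block left 315 genes called of all 13949. That total was 432 in the main test, 659 with array weights, and 151 to 280 without any 1 array but fibrinogen 2, where it was 436. Without control 1, 2 and 3 it was 184, 156 and 151, and without fibrinogen 1 and 3 it was 231 and 280. No alternative reversed the sign of Fas, Casp6, Tnfrsf21, Tnfrsf1a, Fadd, Bok, Bcl2, Bik or Diablo. For Fas, Casp6, Tnfrsf21, Tnfrsf1a and Bik the groups did not overlap, so leaving out 1 array could not have reversed it. Leaving out dim genes removed 9 of the 37 members, Bik among them.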

Other observations

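Genes of necroptosis, pyroptosis and the inflammasome showed 1 rise and 0 falls among 14 measured (limma), with a median log2 change of 0.07. Il18, a cytokine that caspase-1 activates, had levels of 6.94, 6.81 and 6.73 in controls and 7.36, 7.44 and 7.18 with fibrinogen. All fibrinogen arrays were higher, and the change was 0.50 ± 0.09 (SE, adjusted p = 0.0251, limma). The call was lost without control 1, 2 or 3 (adjusted p = 0.0504, 0.110 and 0.115) and without fibrinogen 1 or 2 (0.0860 and 0.0541, limma). The gene for its relative Il33 had a change of 0.28, and Ninj1, which encodes a protein of membrane rupture in dying cells, of 0.38, and neither passed (adjusted p = 0.305 and 0.157, limma). Il1b, below the background percentile, had a change of 0.03, and Gsdmd, which encodes the pore protein of pyroptosis, of -0.02.

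Of 22 genes for survival kinases, their targets and stress-linked death, 0 passed in limma, and at an unadjusted p under 0.05 there were 4 higher and 1 lower (22.7%, against 15.6% of all genes). The 2 with the smallest p were Foxo3, a transcription factor that AKT restrains, with a change of 0.25, and Dapk1, a kinase that promotes death, with 0.48 (adjusted p = 0.129 and 0.150, limma). The groups overlapped for Dapk1. Mapk10 was also higher at an unadjusted p under 0.05 (limma), with 0.23, and the lower gene was Sgk1, with -0.33. Ddit3, which encodes CHOP, a factor of endoplasmic reticulum stress, had a change of 0.28, with its highest level on fibrinogen 2 (8.55, against 8.07 and 8.12). Akt1 and Akt2 had changes of 0.10 and 0.06.

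4 of the 37 members had a second probe set. Those of Bax gave -0.09 and -0.14, both with fibrinogen 2 as the lowest array (10.14 and 9.67). The probe sets of Bcl2l1 gave 0.05 and 0.11, those of Diablo 0.08 and 0.12, and those of Xiap 0.06 and -0.04, which differ in sign.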
